A study of Astyanax mexicanus with 26 samples.

Results

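H3K27me3 in the liver of Pachón cave fish was compared with H3K27me3 in the liver of surface fish, 2 morphs of the Mexican tetra, *Astyanax mexicanus*. Each morph had 2 libraries immunoprecipitated with an Abcam antibody from whole, formaldehyde-fixed adult liver, all 4 of library number 2399. The 2 libraries of a morph share 1 deposited peak list. The series holds 26 libraries, 6 of them of total chromatin. Its 9 peak lists are for H3K27me3, H3K4me3 and H3K27ac in Pachón, Tinaja (another cave) and surface fish. The labels give no age beyond adult, no sex and no treatment, and do not say whether the libraries of a morph came from separate fish.

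The 2 lists held 196146 of the 833231 peaks of the series. Peaks that overlapped or touched were merged, which gave 128311 regions: 32699 with a Pachón peak only, 31755 with a surface peak only and 63857 with a peak of both lists. The other 7 lists were used to describe these classes. With 1 list per morph there is no replicate spread to weigh a difference against, so no p-values are given. Intervals are exact binomial 95% intervals unless named otherwise. They cover counting error alone, and they understate the uncertainty because neighbouring regions are not independent. A missing peak means that none was listed, and in whole liver, fewer marked cells of a type and less mark per cell cannot be told apart. The lists name no gene, so neither the regions nor the liver label could be tied to marker genes. Coordinates are those of the lists, whose genome build no label names.

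H3K27me3 is the product of Polycomb repressive complex 2, whose catalytic subunit is EZH2 or EZH1, and it is bound by Polycomb repressive complex 1. In vertebrates its widest domains lie over silent developmental regulators, often at CpG islands that also carry H3K4me3, the promoter mark, in a state known as bivalent. H3K27ac sits on the same lysine at active promoters and enhancers, so a single histone tail cannot carry both modifications. Cave populations of this species live on scarce food and are known for storing more fat than surface fish, and the liver is a centre of fat and glucose metabolism.

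The morphs shared close to 50% of their H3K27me3 regions, and almost all of their wide ones. Pachón-only regions made up 25.5% of all regions (interval 25.2 to 25.7), surface-only regions 24.7% (24.5 to 24.99) and shared regions 49.8% (49.5 to 50.0). These 3 shares are what the merging rule itself produced. By bases, 35.5 Mb lay in peaks of both lists, which was 67.5% of the 52.6 Mb of the Pachón list and 68.9% of the 51.6 Mb of the surface list. A surface peak met 66.7% of Pachón peaks, and a Pachón peak met 67.6% of surface peaks. Among peaks narrower than 300 bp, 40.0% of the Pachón and 39.5% of the surface peaks met the other list. From 400 to under 600 bp the shares were 73.5% and 75.5%, and from 1000 to under 2000 bp they were 96.3% and 96.9%. At 2000 bp and over, 1594 of 1605 Pachón peaks (99.3%) and 1219 of 1236 surface peaks (98.6%) met the other list. The Pachón list thus held more of these wide peaks than the surface list, although the lists were of nearly equal length.

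**Figure D1:**
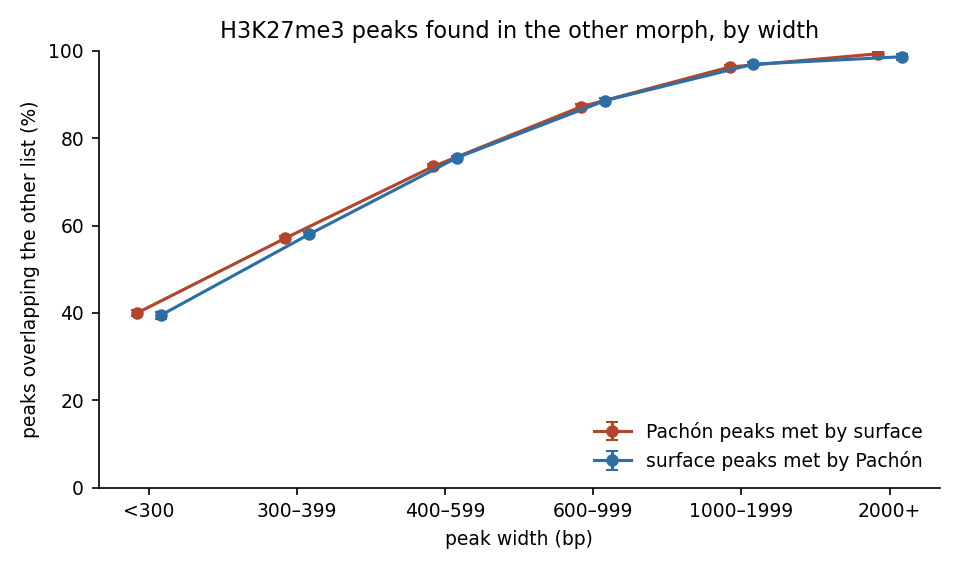
Share of H3K27me3 peaks (%) that overlap a peak of the other morph, by peak width in bp, for the Pachón list and the surface list, with exact binomial 95% intervals. Both lines climb together, from 40.0% and 39.5% under 300 bp to 99.3% and 98.6% at 2000 bp and over.

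Shared regions lay at nearly the same bases in the 2 morphs. Of the 63857 shared regions, 60492 (94.7%) held 1 peak of each list. In these the centres of the peaks lay a median of 29.5 bp apart (quartiles 13.5 and 57 bp), and the overlap covered a median of 84.5% of the wider peak. Few regions stood near the edge of the merging rule. The overlap was under 50 bp in 24 of the 60492, while 97 Pachón-only and 89 surface-only regions lay under 50 bp from a peak of the other list. Where the lists cut a shared region into different numbers of peaks, surface had more pieces in 1861 regions and Pachón in 1298.

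In extent, most shared regions were alike. The bases covered by Pachón peaks over those covered by surface peaks had a median log2 ratio of 0.00 (quartiles -0.19 and 0.20). Pachón covered at least 2-fold more bases in 1170 shared regions, which is 1.83% of them (1.73 to 1.94), and surface did so in 983, or 1.54% (1.45 to 1.64). These counts depended on how regions were built. They were 2209 and 2056 of 55504 shared regions with peaks up to 1 kb apart joined. With the wider 50% of each list they were 473 and 356 of 32894 shared regions, so fewer regions were there to count. Among shared regions of 2 to 5 kb, Pachón covered more bases than surface in 1263 of 1924 (65.6%), and its summed bases were 1.05 times those of surface. Under 1 kb the share was 49.6% of 54146. Wide shared regions were also those with the most H3K4me3. It lay on 96.2% of the regions of 2 to 5 kb in Pachón and 81.1% in surface, against 24.4% and 16.01% of those under 1 kb. A wider region is likelier to meet a peak by its width alone, and how much of the rise that gives was not tested.

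In shared regions that differed 2-fold or more in extent, the Tinaja median lay between those of the other 2 morphs. The regions were picked by the difference between Pachón and surface, and the Tinaja list had no part in that choice. A list outside the choice can fall between the picked extremes for that reason alone. Whether Tinaja lay there for any other reason was not tested. In the 1170 regions that were longer in Pachón, the median covered length was 844 bp in Pachón, 641 bp in Tinaja and 335 bp in surface, and Tinaja covered more bases than surface in 942 (80.5%). In the 983 regions that were longer in surface, the medians were 324 bp in Pachón, 443 bp in Tinaja and 806 bp in surface. Tinaja covered more bases than Pachón in 61.3% of these. Surface H3K4me3 was found at 19.6% (17.3 to 22.0) of the regions longer in Pachón and 37.2% (34.2 to 40.3) of those longer in surface. Pachón H3K4me3 was found at 45.6% (42.7 to 48.5) and 35.1% (32.1 to 38.2) of them. Between these 2 groups, H3K4me3 of each morph was therefore more frequent where that morph's H3K27me3 was the longer. In the 61704 shared regions within 2-fold, H3K4me3 was found at 32.2% in Pachón and 22.8% in surface. Those regions were narrower, with a median width of 526 bp against 851.5 bp (longer in Pachón) and 815 bp (longer in surface).

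Of the 4 widest shared regions of placed chromosomes, 3 had much the same extent in both morphs. On chromosome 22, from 9949289 to 9957781, peaks covered 7295 bp in Pachón and 7934 bp in surface, and 7190 bp in Tinaja. On chromosome 20, from 13679271 to 13685645, they covered 6375 and 6331 bp in Pachón and surface. On chromosome 14, from 25857156 to 25863290, the values were 5967 and 5897 bp. H3K4me3 covered 84.2%, 99.9% and 96.9% of these 3 domains in Pachón, and 71.8%, 97.1% and 83.3% in surface.

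A few broad domains did differ. Of the 38 shared regions of 5 kb and over on placed chromosomes, 26 were longer in Pachón and 12 in surface. On chromosome 7, from 15015032 to 15020787, a single Pachón peak covered 5756 bp, and 3 surface peaks covered 2200 bp, a ratio of 2.62. On chromosome 3, from 32423392 to 32429040, peaks covered 5624 bp in Pachón and 2486 bp in surface, a ratio of 2.26. Tinaja covered 5456 and 5409 bp of these regions, close to Pachón. A region on chromosome 5, from 23103936 to 23110039, had 6104 bp in Pachón and 4768 bp in surface, a ratio of 1.28, and 4963 bp in Tinaja. This is the fourth of the 4 widest shared regions. In the opposite direction the ratios were 0.685, 0.694 and 0.752. Peaks covered 3626 bp in Pachón and 5296 bp in surface on chromosome 14 (2012273 to 2017568). The values were 3755 and 5412 bp on chromosome 20 (19495284 to 19500695) and 4107 and 5460 bp on chromosome 2 (5992524 to 5997983). Tinaja covered 1090, 1356 and 461 bp of these 3 regions, less than either. H3K4me3 covered at least 71.8% of each of these 3 regions in Pachón and 93.6% in surface.

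Single-morph regions were narrow. Their median width was 339 bp in the Pachón-only class (quartiles 284 and 422) and 335 bp in the surface-only class (282 and 414), against 535 bp in the shared class (410 and 782). A width of 1000 bp or more was reached by 243 Pachón-only regions (0.743%), 210 surface-only regions (0.661%) and 9711 shared regions (15.2%). Part of this gap comes from the merging rule, as a shared region is the union of peaks of both lists. In shared regions with 1 peak of each list, the peaks had a median width of 457 bp in each list. A wider peak also has more bases on which to meet the other list. Most single-morph regions lay more than 1 kb from any peak of the other morph. The nearest peak of the other list was a median of 4158 bp away from Pachón-only and 3931 bp from surface-only regions. It was closer than 1 kb for 5679 Pachón-only regions (17.4%) and 5416 surface-only regions (17.1%). It was 10 kb or more away for 7911 (24.2%) and 7290 (23.0%), among them 221 and 174 regions with no peak of the other list on their chromosome or scaffold.

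The classes differed in the neighbourhood they lay in. Pachón-only regions were frequent where H3K27ac was sparse, and surface-only regions where it was dense. Placed chromosomes were divided into 100 kb windows by their number of Tinaja H3K27ac peaks, a list that had no part in the classes. In windows with 0 peaks, 2245 of 5541 H3K27me3 regions were Pachón only (40.5%, 39.2 to 41.8) and 1255 were surface only (22.6%, 21.6 to 23.8). With 1 to 5 peaks the shares were 29.7% (29.2 to 30.2) and 23.1% (22.6 to 23.5). With 6 to 15 peaks they were 21.3% (20.9 to 21.8) and 25.8% (25.4 to 26.3). With 16 peaks and over, 3159 of 16327 regions were Pachón only (19.3%, 18.7 to 19.96) and 4656 were surface only (28.5%, 27.8 to 29.2). The ratio of Pachón-only to surface-only regions was thus 1.79, 1.29, 0.826 and 0.678 from the emptiest to the fullest windows.

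**Figure D2:**
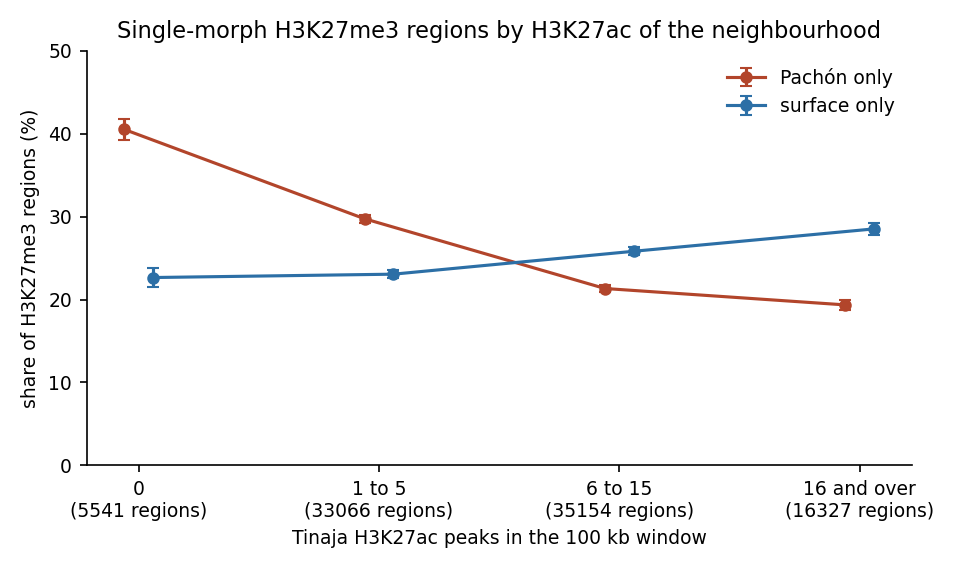
Share of H3K27me3 regions (%) that were Pachón only and surface only, in 100 kb windows of placed chromosomes grouped by their number of Tinaja H3K27ac peaks, with exact binomial 95% intervals. The Pachón-only share is 40.5% in windows with 0 peaks and 19.3% with 16 and over, and the surface-only share is 22.6% and 28.5%.

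A similar order was found with the H3K27ac list of either morph compared. Windows with 0 Pachón H3K27ac peaks had a ratio of Pachón-only to surface-only regions of 1.59, and those with 16 and over of 0.651. With the surface list the ratio was 1.65 at 0 peaks and 0.663 at 6 to 15, but 0.722 at 16 and over. By surface H3K4me3 it was 1.61 at 0 peaks, 0.714 at 6 to 15 and 0.83 at 16 and over. By Pachón H3K4me3 it was 1.38, 1.09, 0.776 and 0.757 from the emptiest to the fullest windows. By Tinaja H3K4me3 it was 1.36, 1.42, 0.957 and 0.727, so the fall was not steady there. On each of the 25 placed chromosomes the ratio was higher in windows with 0 to 5 Tinaja H3K27ac peaks, where it ran from 1.05 to 1.84, than in windows with 6 or more, where it ran from 0.596 to 0.909. Other pairs of morphs share an H3K27me3 list with this one, so their values only stand beside it. Tinaja-only over surface-only regions, by Pachón H3K27ac, were 1.42, 1.25, 0.888 and 0.685 over the same 4 steps. Pachón-only over Tinaja-only regions, by surface H3K27ac, were 1.08, 0.88, 0.834 and 1.15. Differences between these pairs were not tested.

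By the median, Pachón-only regions also lay farther from the active marks than surface-only regions. The nearest H3K27ac peak was a median of 16.9 kb (Pachón list) and 28.2 kb (surface list) from Pachón-only regions. From surface-only regions it was 9.81 kb and 15.4 kb away. For H3K4me3 the medians were 11.7 kb and 18.3 kb from Pachón-only regions, and 9.89 kb and 12.2 kb from surface-only regions. Shared regions lay 4.81 kb and 8.89 kb from H3K4me3, and 9.33 kb and 16.4 kb from H3K27ac. Close to Pachón H3K4me3 the order was the other way, with 17.4% of Pachón-only and 15.7% of surface-only regions within 1 kb of a peak.

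Tinaja carried H3K27me3 more often at Pachón-only than at surface-only regions. A Tinaja H3K27me3 peak overlapped 61.7% of all regions. It overlapped 15074 of 32699 Pachón-only regions (46.1%, 45.6 to 46.6), 11698 of 31755 surface-only regions (36.8%, 36.3 to 37.4) and 52373 of 63857 shared regions (82.0%, 81.7 to 82.3). The difference between the single-morph classes was 9.26 percentage points (normal 95% interval 8.50 to 10.02). The Pachón-only share was the higher on all 25 placed chromosomes, by 0.616 points on chromosome 2 and 14.3 points on chromosome 13.

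The difference grew with the width of the region. Under 300 bp, Tinaja had a peak at 32.9% of Pachón-only and 28.3% of surface-only regions. From 400 to under 600 bp the shares were 57.8% and 45.0%, and from 600 to under 1000 bp 67.3% and 47.7%. From 1000 to under 2000 bp they were 75.4% (69.4 to 80.8, of 232 regions) and 45.6% (38.4 to 52.9, of 193). The Pachón-only share thus climbed with every step of width, while the surface-only share stayed between 45.0% and 47.7% from 400 bp on. Regions of 2000 bp or more are left out here, as the single-morph classes hold too few of them. Tinaja H3K27me3 was less frequent far from the other morph, in both classes. At 10 kb or more from any peak of the other list, Tinaja had a peak at 40.8% of Pachón-only (39.7 to 41.9) and 31.1% of surface-only regions (30.0 to 32.2). Under 1 kb from one, the shares were 52.8% and 39.5%.

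**Figure D3:**
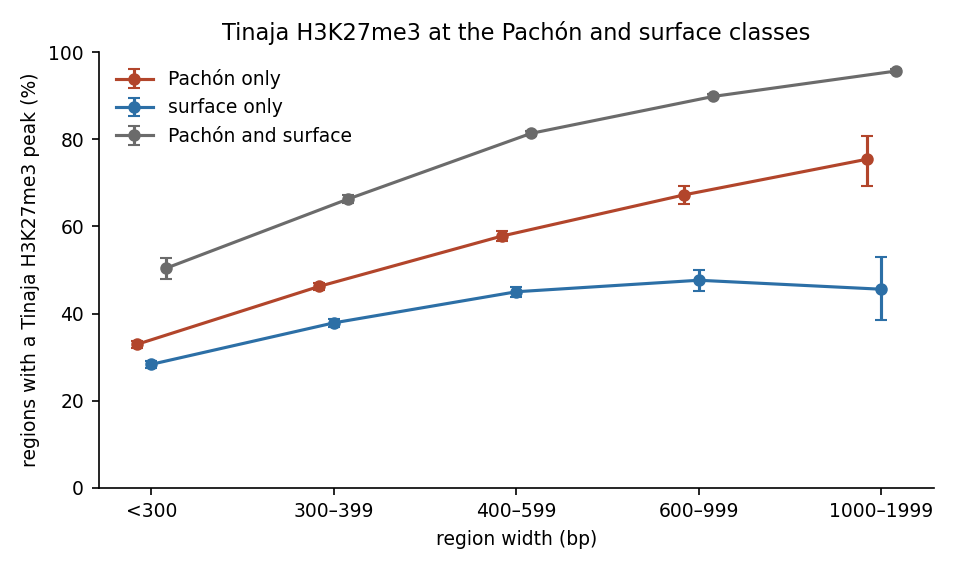
Share of H3K27me3 regions (%) that overlap a Tinaja H3K27me3 peak, by region width in bp, for Pachón-only, surface-only and shared regions, with exact binomial 95% intervals. The Pachón-only line lies above the surface-only line in every width, and from 1000 to under 2000 bp the shares are 75.4% and 45.6%.

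Surface H3K4me3 was rarer at Pachón-only than at surface-only regions, and so was H3K27ac of both morphs. Over all regions, 21.8% overlapped an H3K4me3 peak of Pachón and 15.6% one of surface, and 14.1% and 7.54% overlapped an H3K27ac peak. Pachón H3K4me3 lay on 4000 Pachón-only regions (12.2%, 11.9 to 12.6) and on 3269 surface-only regions (10.3%, 9.96 to 10.6). Surface H3K4me3 lay on 1963 Pachón-only regions (6.003%, 5.75 to 6.27) and on 3344 surface-only regions (10.5%, 10.2 to 10.9). Shared regions carried more, with 32.5% in Pachón and 23.0% in surface. The Pachón-only share of surface H3K4me3 was 0.570 times the surface-only share (normal interval 0.540 to 0.601). For Pachón H3K4me3 this ratio was 1.19 (1.14 to 1.24), and it was 1.03 (0.981 to 1.09) once peaks up to 1 kb apart were joined, an interval that holds 1.

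H3K27ac was more frequent in the surface-only than in the Pachón-only class in each of the 3 lists. Pachón H3K27ac lay on 3291 Pachón-only regions (10.1%, 9.74 to 10.4) and 3963 surface-only regions (12.5%, 12.1 to 12.8). Surface H3K27ac lay on 1671 (5.11%, 4.87 to 5.35) and 2336 (7.36%, 7.07 to 7.65) of them, and Tinaja H3K27ac on 16.3% and 18.7%. Shared regions had the most, with 17.0% in Pachón, 8.87% in surface and 31.1% in Tinaja. The shares over all regions were 14.1%, 7.54% and 24.3%. The lists of the active marks are longer in Pachón than in surface, at 64432 and 56323 H3K4me3 peaks and 93527 and 70089 H3K27ac peaks, so shares of the full lists are not comparable between the morphs. With lists cut to equal length by peak width, Pachón H3K4me3 lay on 10.8% of Pachón-only and 8.92% of surface-only regions, and surface H3K4me3 on 6.02% and 10.5%. Pachón H3K27ac lay on 7.78% and 9.65%, and surface H3K27ac on 5.10% and 7.36%. The library numbers of the active-mark libraries differ between Pachón and surface, so library and morph cannot be told apart for these marks.

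**Figure D4:**
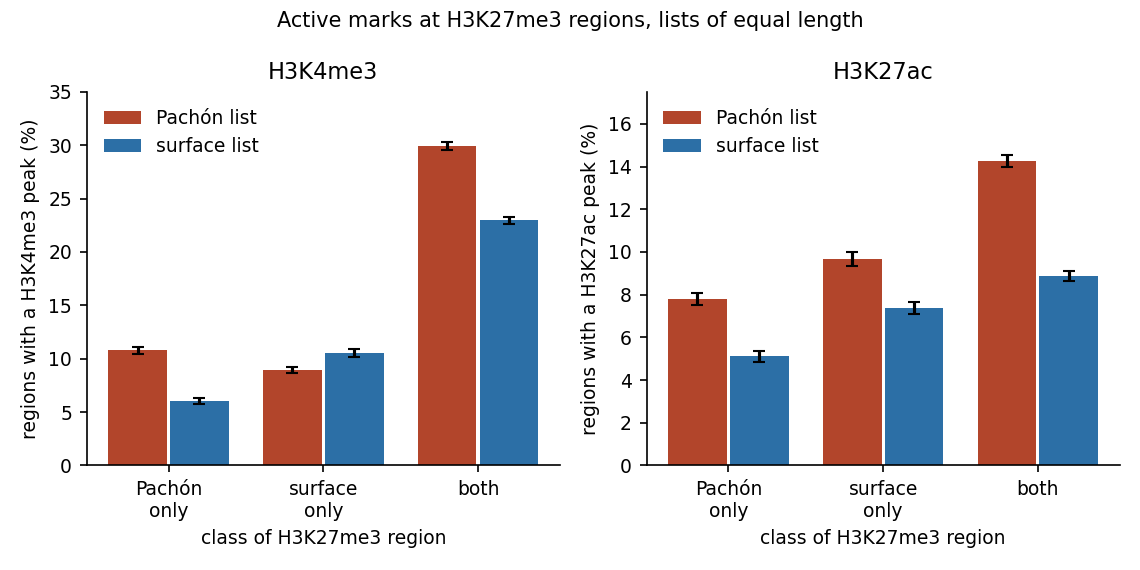
Share of Pachón-only, surface-only and shared H3K27me3 regions (%) with an H3K4me3 peak (left) or an H3K27ac peak (right) of Pachón and of surface, with lists cut to equal length and exact binomial 95% intervals. Surface H3K4me3 is at 6.02% of Pachón-only and 10.5% of surface-only regions. Both H3K27ac lists are higher in the surface-only than in the Pachón-only class, and highest in the shared class.

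Region by region, most single-morph H3K27me3 had no active mark in either morph. Neither H3K4me3 nor H3K27ac of Pachón or surface was present at 26016 Pachón-only regions (79.6%), 24078 surface-only regions (75.8%) and 35473 shared regions (55.6%). Between the single-morph classes, H3K4me3 in 1 morph alone was more frequent where H3K27me3 was of that morph. Of Pachón-only regions, 2693 (8.24%) had H3K4me3 in Pachón alone and 656 (2.01%) in surface alone. Of surface-only regions, 1461 (4.60%) had it in Pachón alone and 1536 (4.84%) in surface alone. The odds ratio was 4.32 (normal 95% interval 3.86 to 4.82). Shared regions had 9015 (14.1%) and 2934 (4.59%). The Pachón excess there stood between those of the single-morph classes, and the share with H3K4me3 in Pachón alone was the highest of all classes. With lists of equal length the shares were 6.95% and 2.18% in Pachón-only, 3.60% and 5.22% in surface-only and 12.1% and 5.13% in shared regions.

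H3K27ac in 1 morph alone did not go mostly with the H3K27me3 of that morph in Pachón. H3K27ac in Pachón alone lay on 1903 Pachón-only regions (5.82%) and 2235 surface-only regions (7.04%). H3K27ac in surface alone lay on 283 (0.865%) and 608 (1.91%) of them. The odds ratio was 1.83 (1.57 to 2.13), with both private marks more frequent in the surface-only than in the Pachón-only class. The 2235 surface-only regions with H3K27ac in Pachón alone outnumbered the 283 regions of the reverse kind. Shared regions also leaned to Pachón, with 5897 (9.23%) with H3K27ac in Pachón alone and 690 (1.08%) in surface alone. Pachón alone over surface alone was 6.72 in Pachón-only, 3.68 in surface-only and 8.55 in shared regions. With lists of equal length, 1539 surface-only regions (4.84%) had H3K27ac in Pachón alone. Then 381 Pachón-only regions (1.17%) had it in surface alone, and shared regions had 4379 (6.86%) and 932 (1.46%).

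Tinaja H3K27me3 differed between the regions where both marks were private to 1 morph. Where a Pachón-only region had H3K4me3 in Pachón alone, Tinaja had H3K27me3 at 65.3% (63.4 to 67.1, of 2693). Where a surface-only region had H3K4me3 in surface alone, Tinaja had it at 28.7% (26.5 to 31.0, of 1536). With H3K27ac in place of H3K4me3 the shares were 54.5% (52.2 to 56.7, of 1903) and 16.8% (13.9 to 19.99, of 608). Regions with no H3K4me3 in either morph gave 44.3% and 37.0%, and those with no H3K27ac in either gave 46.1% and 37.0%. These groups were not matched for region width. The share also differed with the morph that held the active mark within a class. Surface-only regions with the mark in Pachón alone had Tinaja H3K27me3 at 44.4% for H3K4me3 and 44.1% for H3K27ac. Pachón-only regions with the mark in surface alone had it at 47.4% and 38.2%. Surface-only H3K27me3 with H3K27ac in surface alone was thus the group least shared with Tinaja among those counted by H3K27ac.

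All 8 of the widest single-morph regions on placed chromosomes overlapped H3K4me3 of the morph that carried H3K27me3. Such overlap is not particular to them. Of shared regions of 2000 bp and over, 96.3% overlapped Pachón H3K4me3 and 81.8% surface H3K4me3. On chromosome 1, from 5494262 to 5497032, a Pachón-only peak of 2771 bp was covered by Pachón H3K4me3 at 99.4% and by surface H3K4me3 at 30.3%. Tinaja had neither mark there. On chromosome 3, from 59253802 to 59256418, Pachón H3K4me3 covered 97.9% and surface H3K4me3 0%. A region of chromosome 13, spanning 2434400 to 2436831, had 86.5% and 0%. Tinaja H3K27me3 covered 99.2% and 97.7% of these 2 regions. The region on chromosome 8, from 24708497 to 24710944, was the only one of the 4 with more active mark in the other morph: H3K4me3 covered 34.4% in Pachón and 97.4% in surface, and H3K27ac 29.2% and 89.8%. In Tinaja these marks covered 99.3% and 97.1%, and H3K27me3 0%.

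Of the widest surface-only regions, 3 had H3K4me3 in surface and none in Pachón, which covered 83.4% on chromosome 24 (44031086 to 44033899), 42.9% on chromosome 25 (5675172 to 5677520) and 56.3% on chromosome 3 (60717232 to 60719568). The first also carried surface H3K27ac over 93.5%. The regions on chromosomes 24 and 3 lay only 765 and 75 bp from the next Pachón H3K27me3 peak. The fourth, on chromosome 19 from 6247828 to 6250132, was 75265 bp from one and carried H3K4me3 over 100% in Pachón and 84.1% in surface. Tinaja had no H3K27me3 in the first 3 and covered 77.2% of the fourth.

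Single-morph regions also came in series. Among neighbouring regions, 385 runs of 5 or more were Pachón only, holding 2276 regions (6.96% of the class), and 303 were surface only, holding 1812 (5.71%). The order turned at the longest runs: 7 runs of 10 or more were Pachón only, holding 75 regions (0.229%), and 15 were surface only, holding 173 (0.545%). Shared regions formed 2529 runs of 5 or more, holding 16344 regions (25.6% of that class). Some runs form from a mixed order of classes alone, and how many do was not tested. Regions of the long runs had less Tinaja H3K27me3 than single ones, at 41.0% (39.0 to 43.1) against 47.2% in Pachón-only and 32.9% (30.8 to 35.2) against 38.4% in surface-only runs. Tinaja H3K27ac went opposite ways, on 10.8% of the regions in long Pachón-only runs and 17.6% of single Pachón-only regions, but on 24.3% and 16.9% in the surface-only class. Over all regions its share was 24.3%, so the long surface-only runs were level with that share and the other 3 groups lay below it.

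The longest Pachón-only run on placed chromosomes had 12 regions of 270 to 618 bp on chromosome 14, from 7374710 to 7473726, with no surface H3K27me3 peak over 99.02 kb. Tinaja had H3K27me3 at 5 of the 12. Runs of 10 regions lay on chromosome 2, from 26045659 to 26095549, and on chromosome 17, from 21543844 to 21603732, with Tinaja at 5 and 1 of them. The chromosome 2 run held no H3K27ac peak of any morph. The longest surface-only run had 15 regions on chromosome 10, from 26656617 to 26809348, with 8 Pachón and 1 surface H3K27ac peaks and Tinaja H3K27me3 at 6 regions. Runs of 14 lay on chromosome 18, from 16053546 to 16133832, and on chromosome 9, from 36004862 to 36100888. The chromosome 18 run was dense in active marks, with 13 H3K4me3 peaks in each of Pachón and surface, 18 Pachón and 7 surface H3K27ac peaks, and Tinaja H3K27me3 at 1 of 14 regions.

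**Figure D5:**
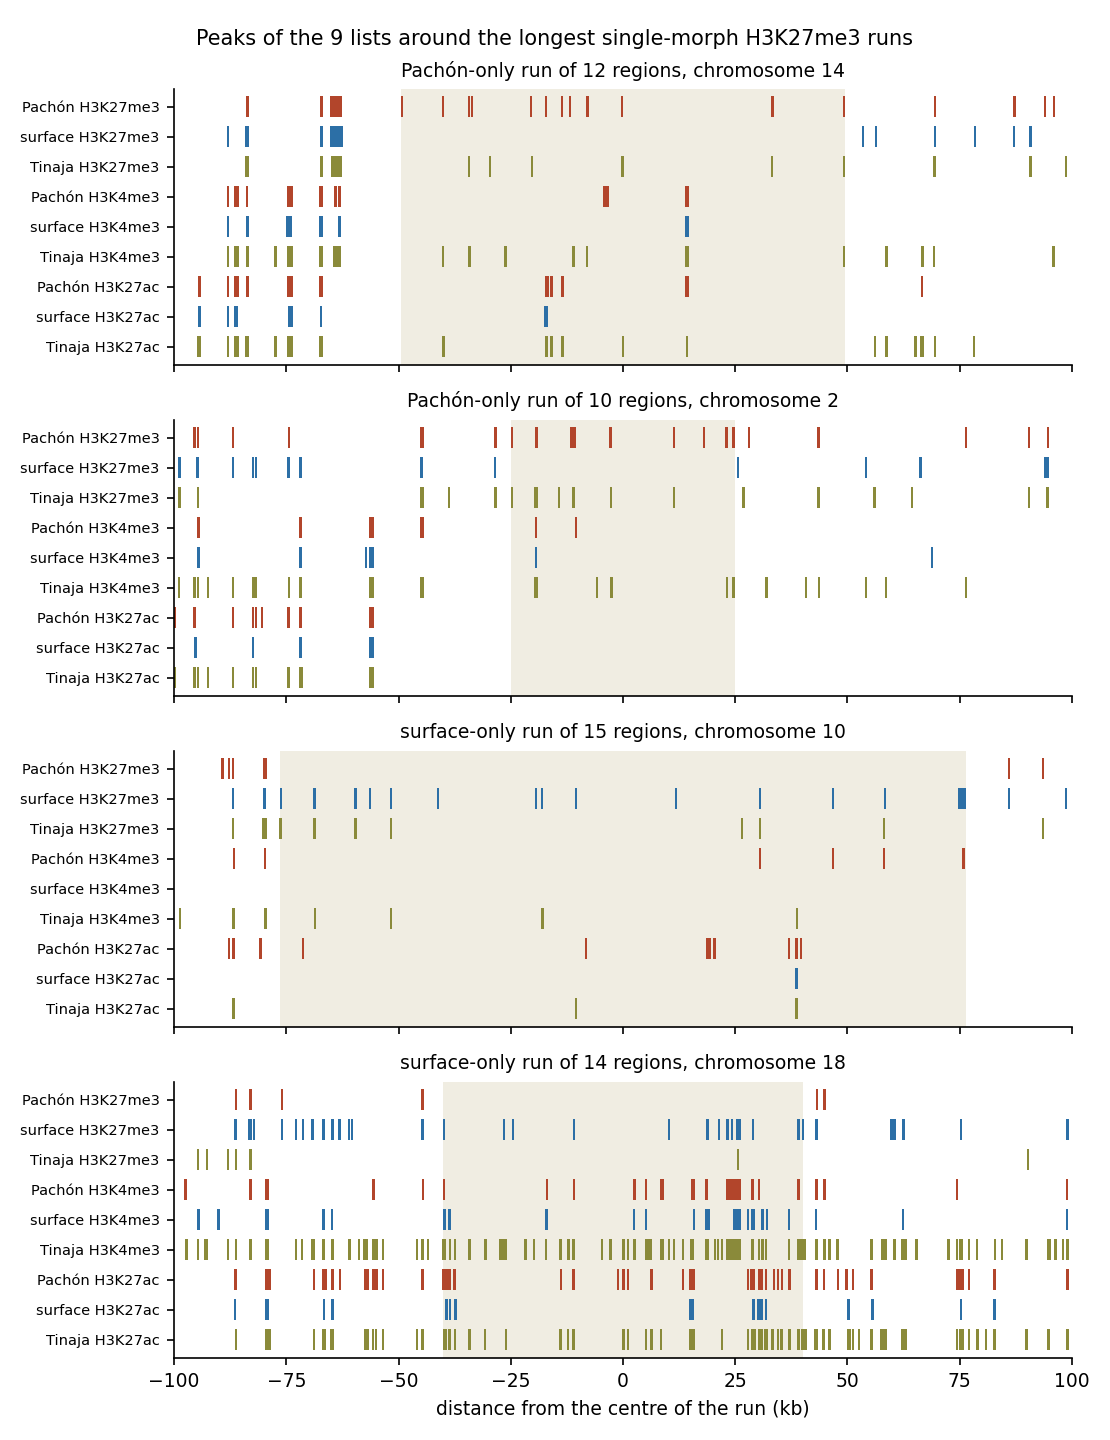
Peaks of all 9 lists around the 2 longest Pachón-only runs (upper panels) and the 2 longest surface-only runs (lower panels) of placed chromosomes, as distance from the centre of the run in kb. Bars are peaks, drawn at least 0.5 kb wide, and shading marks the run. The chromosome 14 run has 12 Pachón and no surface H3K27me3 peaks, the chromosome 10 run 15 surface and no Pachón peaks.

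Class shares varied between fixed windows. Of 5731 placed 100 kb windows with at least 8 regions, 637 (11.1%) had 50% or more Pachón-only regions and 460 (8.03%) had 50% or more surface-only regions. Over all regions the shares of these classes were 25.5% and 24.7%. With so few regions per window, some windows reach 50% by counting error alone, and how many do was not tested. The windows named next had the highest shares. All 9 regions on chromosome 18 from 3400001 to 3500000 were Pachón only, as were 10 of 11 on chromosome 6 from 21200001 to 21300000. So were 9 of 10 on chromosome 16 (7300001 to 7400000) and 8 of 9 on chromosome 2 (22700001 to 22800000). These 4 windows held 0 H3K27ac peaks of Pachón and of surface, and 0 H3K4me3 peaks of surface. Pachón had 1, 1, 1 and 2 H3K4me3 peaks in them. Tinaja had 1, 5, 0 and 0 H3K27ac peaks and 3, 6, 0 and 2 H3K4me3 peaks. Its lists of these marks are longer than those of the other morphs, at 117125 H3K27ac and 136219 H3K4me3 peaks. The chromosome 18 window thus held 0 surface peaks of any of the 3 marks. All 13 regions on chromosome 9 from 36000001 to 36100000 were surface only, as were 13 of 14 on chromosome 23 from 17600001 to 17700000. A window of chromosome 24 (7500001 to 7600000) held 19 of 21, and a window of chromosome 1 (16100001 to 16200000) held 8 of 9. H3K27ac peaks of Pachón numbered 5, 0, 3 and 14 in these 4 windows, and those of surface 2, 2, 3 and 10. Tinaja had H3K27me3 at 14 of the 19 surface-only regions of the chromosome 24 window and at 0 of the 8 on chromosome 1.

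Chromosome 21 had the highest Pachón-only share. The Pachón-only share ran from 21.7% on chromosome 3 to 28.8% on chromosome 12 on all but chromosome 21, where it was 32.6% of 1797 regions. The surface-only share ran from 23.0% on chromosome 12 to 27.4% on chromosome 5 and was 23.9% on chromosome 21. Pachón-only regions outnumbered surface-only regions on 14 of the 25 placed chromosomes, and on the unplaced scaffolds with 9965 against 9145.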

How the data were processed

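Livers of adult fish were profiled by chromatin immunoprecipitation and single-read sequencing, per the labels. Tools listed in the submitters' processing notes are MACS2, SAMtools, Bowtie2 and bcl2fastq (version 2.20). No source at hand names their settings, the genome build, or how the libraries of a morph were combined. For each morph and mark there is 1 list of peak positions. The score column, as deposited by the authors, is 0 for every peak, so neither height nor significance was used, and depth is unknown. Reads and total chromatin were not analysed here. The gene table at hand is of another assembly: chromosome 1 ends at 27.0 Mb in the lists and at 134 Mb in the table, and 4 chromosomes of the lists run past its last gene. No gene was named.

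Positions are counted from 1. Overlap means 1 bp or more, and a window holds the regions whose midpoint lies in it. Regions named are the 4 widest of each class, the 3 shared regions of at least 5 kb with the largest ratio each way, the 3 longest runs and 4 windows per single-morph class, all on placed chromosomes. The comparison, classes and rules were chosen with earlier results of these data known, and the grouping by H3K27ac neighbourhood after the lists were seen. Alternatives were stricter, equal-length or placed lists, other overlap, joining and windows. Overlap counts were tested on simulated data. Software was Matplotlib 3.10.9, SciPy 1.17.1, NumPy 2.4.6 and Python 3.11.15.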

Additional observations from a re-analysis of the deposited data

How the results depend on the processing

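Over 20 results and 89 alternatives, 59 values stayed within 1.5 times (counts) or within the interval or quartiles of the main value. No direction reversed among the differences and ratios that had an interval. Counts and widths had no direction to reverse, so they could only stay or move. With the wider 50% of each list there were 15386 Pachón-only, 14754 surface-only and 32894 shared regions, and 1 kb windows gave 97026 shared ones. Regions with 2-fold or more bases numbered 473 in Pachón and 356 in surface with the wider 50%. They numbered 2209 and 2056 of 55504 shared regions with peaks up to 1 kb apart joined, and 719 of 44744 in Pachón on placed chromosomes. The Tinaja difference between Pachón-only and surface-only regions was 10.7 points with the wider 50%, 7.83 with joining, 8.22 on placed chromosomes and 8.41 at 1 kb or more from the other morph. The Pachón-only to surface-only ratio of Pachón H3K4me3 was 1.03 with joining and 1.08 at 1 kb or more. That of surface H3K4me3 was 0.639 on placed chromosomes, and that of surface H3K27ac 0.757 there and 0.840 with the wider 50%. The H3K4me3 odds ratio was 3.33 with joining, 3.32 on placed chromosomes and 3.85 at 1 kb or more, and the H3K27ac odds ratio 1.54 on placed chromosomes and 1.39 with the wider 50%. In windows with 0 to 5 Tinaja H3K27ac peaks the ratio of Pachón-only to surface-only regions, 1.36 in the main setting, was 1.17 in 50 kb windows, 1.20 with equal lists and 1.19 with the wider 50%. With 6 or more peaks, where it was 0.776, it was 0.680, 0.702 and 0.690, and 0.751 with joining. The cut at 0 to 5 peaks was kept in the 50 kb windows and with the shortened Tinaja H3K27ac lists. The 2 groups of windows there are therefore not those of the main setting. The wider 50% and the placed chromosomes hold fewer peaks, so their region counts cannot be set against the main ones. The 1 kb windows count another unit. The cause of the shifts in the remaining results was not tested. The settings at 1 kb or more from the other morph, the width bins and all settings of the neighbourhood were chosen after seeing the data. No paired analysis was possible because the libraries of a morph share 1 list per mark, and no replicate could be left out for the same reason. Depth is unknown, so the share of weak peaks that a deeper library would have added to either list cannot be given.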

Other observations

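Long stretches without H3K27me3 peaks of 1 of the 2 morphs were few. Of 9089 placed 100 kb windows with a peak of any list, 5 held at least 5 Pachón and 0 surface H3K27me3 peaks, and 6 held at least 5 surface and 0 Pachón peaks. When the 3 marks were counted together, 2 windows held at least 10 Pachón peaks and 0 surface peaks, and 0 windows the reverse. Of 1901 unplaced scaffolds with an H3K27me3 region, 138 had Pachón peaks alone, 103 surface peaks alone and 1660 both.

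When regions up to 1 kb apart were joined into domains, 6164 Pachón-only regions (18.9%) and 5838 surface-only regions (18.4%) became part of a shared domain. Domains of 2 or more regions remained in 1260 Pachón-only and 1259 surface-only cases. Tinaja had H3K27me3 in 868 of the Pachón-only ones (68.9%) and 594 of the surface-only ones (47.2%), against 89.8% of the shared domains of 2 or more regions.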
